A study of Mus musculus with 4 samples.

Results

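Interferon-stimulated genes are the antiviral and immune genes that cells switch on after an interferon signal, and their transcripts were followed here in brown-like adipocytes made in culture. From a named list of 40 such genes, those with a probe set annotated to that gene alone were kept, which gave 38 of the 18193 genes measured. Each was read from its brightest probe set by the mean of all 4 arrays. Ifi44 and Isg15 had no such probe set and were not analysed here. Oas3, Cmpk2 and Mx1 lay below the signal filter, a mean log2 signal of 6.13, so 35 genes were tested.

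The cultures were grown from epididymal white fat of mice, starting from its stromal vascular fraction (SVF), which is what remains after mature fat cells have been taken out. One pair of arrays (n = 2) was from males homozygous for a mutant Lgr4 allele and the other pair (n = 2) from wild-type males, all aged 4 months. Lgr4 binds R-spondins, secreted proteins that strengthen Wnt signalling. Both genotypes were expanded with 10 ng/ml bFGF, then given insulin (5 µg/ml), IBMX (0.5 mM), dexamethasone (1 µM), T3 (50 nM) and troglitazone (5 µM) for 48 h, and then insulin, T3 and troglitazone for 6 days. No interferon, infection or other immune stimulus is named in the labels, so the values are levels without a named stimulus. They were taken after culture with dexamethasone, a glucocorticoid. Whether the cultures were free of any such stimulus was not tested. What the Lgr4 mutation is, and whether each array had an animal of its own, is not given in the sources used here. The labels speak of biological replicates.

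Type I interferons bind the receptor pair Ifnar1 and Ifnar2, and the kinases Jak1 and Tyk2 then activate transcription factors. Among these, Stat2 joins Irf9 in a complex that binds interferon-stimulated response elements in promoters. The induced proteins sense foreign nucleic acid, bind or degrade viral RNA, limit nucleotides, block membrane fusion, or shut the signal off again. Many of these genes keep a low level without infection through weak tonic signalling, and macrophages, a normal component of fat, express many of them.

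The genotype labels and the cell type were checked first. Lgr4 read 6.18 and 6.09 on the mutant arrays, against 8.65 and 8.20 on the wild-type arrays (log2 difference -2.29, SE 0.14). A second, dimmer Lgr4 probe set lay below the filter (0.086). Adipoq, the adipokine adiponectin, read 14.48 and 14.45 in mutant and 11.26 and 11.24 in wild-type cultures. All 11 adipocyte markers tested were higher in the mutant (median difference 2.92), against 11.1% of all genes tested. Pparg, the nuclear receptor that drives fat cell formation, read 10.85 and 10.82 in mutant and 8.10 and 7.73 in wild-type cultures. Cebpa, Fabp4, Plin4, Lipe, Pnpla2, Cd36, Cidec and Scd1 were also higher by at least 1 on the log2 scale. Macrophage markers gave strong signals in both genotypes, so the cultures were not of adipocytes alone. Lyz2, a lysozyme of myeloid cells, read 14.76 and 14.75 in mutant and 14.93 and 14.94 in wild-type cultures.

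Interferon-stimulated genes were mostly lower in the Lgr4 mutant cultures. Of the 35 tested, 18 were lower (51.4%), 2 were higher (5.71%) and 15 did not pass an adjusted p of 0.05 in limma. Among all 13173 genes tested, 18.7% were lower and 11.1% higher, or 29.8% in either direction. The median difference, mutant minus wild-type, was -0.39 on the log2 scale over the 35 genes and -0.035 over all genes tested. Both mutant values lay below both wild-type values in 26 of the 35, against 39.9% of all genes, and above them in 3, against 28.9% of all genes (68.8% of all genes in either direction). Single-gene differences ran from -1.64 for Ifit1 to 0.96 for Ifi27, besides a fitted -2.18 for Ifi202b, whose mutant values lay below the filter. Ifi202b is counted among the 18 and the 26, though it passed the filter only through the wild-type arrays. The count of lower genes depended on the arrays. It was 11 without mutant replicate 2, when 8.9% of all genes were lower, and 15 to 24 when one of the other arrays was left out, while 2 or 3 members were higher in each case. With each array centred on the median of the tested genes, an alternative chosen after seeing the data, 14.1% of all genes were lower and 13.3% higher, and 18 members were lower and 3 higher. With 2 against 2 arrays an exact permutation test of a single gene cannot go below p = 0.333, so the calls rest on limma's spread shared over genes.

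**Figure D1:**
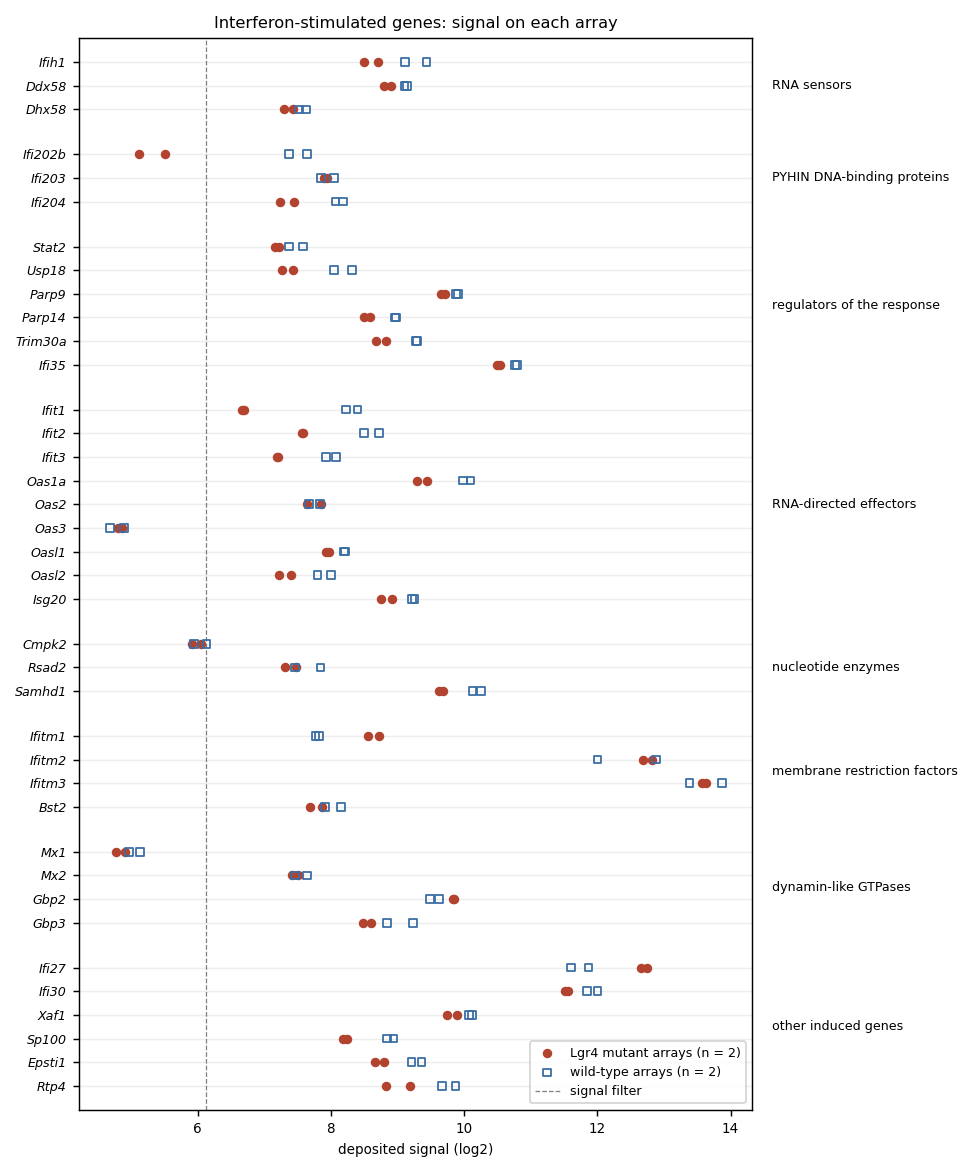
Deposited log2 signal (horizontal axis) of the 38 interferon-stimulated genes on each array, by role: filled circles, 2 Lgr4 mutant arrays; open squares, 2 wild-type arrays; dashed line, the signal filter at 6.13. In 26 of the 35 tested genes both circles lie left of both squares, with Ifi202b and Ifit1 the widest apart, and Ifitm1 and Ifi27 lie the other way round.

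Of 15 macrophage markers, 7 were lower in the same cultures (46.7%, against 18.7% of all genes), 8 did not pass and none was higher. Their differences were all negative, from -0.79 for Itgam, an integrin subunit, to -0.12 (median -0.33), while 54.7% of all genes tested had a negative difference. Summed over the list, their log2 signals were 176.5 and 175.6 on the mutant arrays and 181.2 and 181.8 on the wild-type arrays, and none of the markers was near the filter in either genotype. Fcgr1, an Fc receptor that is itself interferon-inducible, was lower by 0.68, while Cd68 (-0.27) and Adgre1, an adhesion receptor listed here as Emr1 (-0.19), did not pass. Cd68 was -0.45 without wild-type replicate 1 and -0.089 without wild-type replicate 2. Differences of 22 interferon-stimulated genes lay within the range of the macrophage markers. Those of Ifit1, Ifit2, Usp18 and Ifit3 were lower than any of them. So was the fitted difference of Ifi202b, whose mutant values lay below the filter. Preadipocyte and fibroblast markers were also lower on balance, with 5 of 10 lower, none higher and a median of -0.28, and Thy1, a surface protein of stromal cells, was lower by 2.17. In RNA from whole cultures, fewer cells of a type and less RNA per cell cannot be told apart, and the part of the macrophage or fibroblast difference in the interferon-stimulated genes was not tested. Of 8 lymphocyte and plasmacytoid dendritic cell markers on the array, 4 lay below the filter and none of the other 4 passed.

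**Figure D2:**
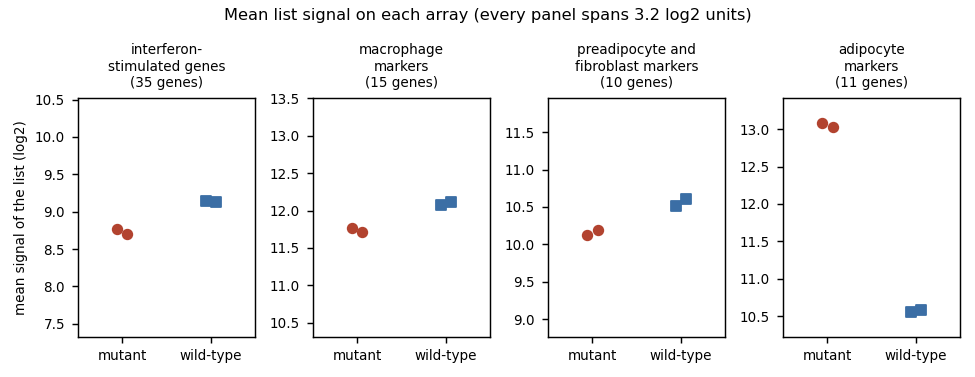
Mean log2 signal (vertical axis) of 4 gene lists on each array, with 2 Lgr4 mutant arrays (circles) left of 2 wild-type arrays (squares), and every panel spanning 3.2 log2 units. The interferon-stimulated genes stood at 8.77 and 8.71 in the mutant and 9.15 and 9.13 in wild-type, the macrophage markers at 11.76 and 11.71 in the mutant and 12.08 and 12.12 in wild-type, and the adipocyte markers at 13.09 and 13.03 in the mutant and 10.56 and 10.58 in wild-type.

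The IFIT genes, whose proteins bind foreign RNA and are among the most strongly induced by type I interferon, gave the clearest falls among the effectors. Ifit1, which recognises RNA with incompletely methylated caps, read 6.67 and 6.69 on the mutant arrays and 8.40 and 8.23 on the wild-type arrays. Its difference was -1.64 (SE 0.10, adjusted p = 1.28e-05), or 3.11-fold lower, and the groups lay far apart. Ifit2 read 7.57 and 7.58 in mutant and 8.73 and 8.50 in wild-type cultures, a difference of -1.04 (SE 0.11, adjusted p = 0.000235). Ifit3, a partner of Ifit1 and Ifit2, read 7.21 and 7.19 in mutant and 8.08 and 7.93 in wild-type cultures, a difference of -0.80 (SE 0.098, adjusted p = 0.000655). The mutant values of each gene were within 0.03 of each other, and all 3 calls held in every alternative that could be run. The IFIT genes lie together on chromosome 19, where Ifit2 and Ifit3 are neighbours and 3 other protein-coding genes lie between Ifit3 and Ifit1.

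Promoter windows of the IFIT genes are shown because these genes fell together and because the response element in them is the known entry point of the pathway. RefSeq windows (GRCm38.p6) run from 250 bases before to 50 bases after an annotated start, 300 bases in all, and are printed along the gene's own strand. Capitals mark GAAA followed after any 2 bases by a second GAAA, on either strand, the core of the response element, where overlapping matches were all counted. The Ifit1 window is chr19:34640639-34640938, plus strand, with matches starting 104 and 85 bases before the start. The Ifit3 window is chr19:34583279-34583578, plus strand, with matches starting 156 and 122 bases before the start. It lies inside the annotated span of the gene, which begins at 34583119.
Ifit1: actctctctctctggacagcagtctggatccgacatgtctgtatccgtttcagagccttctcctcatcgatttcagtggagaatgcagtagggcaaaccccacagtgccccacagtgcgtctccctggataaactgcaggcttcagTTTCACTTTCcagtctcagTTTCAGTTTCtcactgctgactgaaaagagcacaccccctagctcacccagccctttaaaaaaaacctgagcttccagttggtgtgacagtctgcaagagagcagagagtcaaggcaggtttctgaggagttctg
Ifit3: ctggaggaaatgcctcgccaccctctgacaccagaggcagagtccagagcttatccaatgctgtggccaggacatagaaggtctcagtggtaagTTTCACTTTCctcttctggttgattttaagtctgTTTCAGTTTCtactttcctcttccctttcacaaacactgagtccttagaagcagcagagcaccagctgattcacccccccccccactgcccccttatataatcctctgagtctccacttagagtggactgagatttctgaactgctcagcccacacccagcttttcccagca
Both genes carry a pair of matches with the same letters in the same order. Neither of the Ifit2 windows in the table held the core, although Ifit2 fell as well. The annotated span of Ifit2 begins at 34550550 and its windows at 34550444 and 34550838. Bases before 34550444 were therefore not searched, and the lack of a match covers only a short stretch before the gene.

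Among 30 members with a RefSeq window, including Ifi44 and Isg15, 16 (53.3%) held the core, against 3.99% of 27025 genes in the table and 3.44% of 32851 windows. By call, 6 of 14 lower genes and 8 of 11 tested genes that did not pass had it. The gamma-activated element core TTCNNNGAA, which reads the same on both strands, was in 8 of the 30 genes and in 9.55% of all genes. The following 30-base stretches, also in gene direction, show the first match in lower genes (Ifih1 at chr2:62646206-62646235, Oas1a at chr5:120907523-120907552, Trim30a at chr7:104465207-104465236, all minus strand, and Gbp3 at chr3:142559992-142560021, plus strand) and then in genes that did not pass (Ddx58 at chr4:40239801-40239830 and Bst2 at chr8:71537580-71537609, both minus strand).
Ifih1: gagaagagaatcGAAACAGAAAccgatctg
Oas1a: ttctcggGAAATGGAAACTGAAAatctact
Trim30a: tctttagTTTCTTTTTCtcagttcctgccc
Gbp3: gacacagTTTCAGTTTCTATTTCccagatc
Ddx58: gaggcagTTTCGATTTCctatggccagccg
Bst2: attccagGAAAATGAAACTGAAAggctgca
In Oas1a, Gbp3 and Bst2 a pair of matches overlaps, giving the 3 GAAA units (or their complement) in a row. Bst2 carries this longer form and did not pass. Trim30a fell, with 1 match in the window the stretch is from and 1 in its other window.

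The oligoadenylate synthetases, which make the activator of RNase L, split. Oas1a read 9.44 and 9.30 in mutant and 9.98 and 10.09 in wild-type cultures, and was lower by 0.67 (SE 0.10, adjusted p = 0.00189). Oasl2, a ubiquitin-like family member, read 7.40 and 7.23 in mutant and 7.80 and 8.00 in wild-type cultures, a difference of -0.59 (SE 0.11, adjusted p = 0.00556). It did not pass with mutant replicate 2 left out (adjusted p = 0.051). For Oas2 the values overlapped, at 7.85 and 7.64 in mutant and 7.67 and 7.84 in wild-type cultures. Oasl1, which represses Irf7 translation in mice, differed by -0.25 and did not pass (adjusted p = 0.0726), with -0.28 to -0.20 over the alternatives. Its groups did not overlap, as in 68.8% of all genes tested. Oas3 was below the filter, at 4.81 and 4.86 in mutant and 4.68 and 4.90 in wild-type cultures. The exonuclease gene Isg20 read 8.75 and 8.91 in mutant and 9.22 and 9.26 in wild-type cultures, and was lower by 0.41 (adjusted p = 0.0169). Isg20 no longer passed when mutant replicate 1 (adjusted p = 0.239) or 2 (adjusted p = 0.0558) was left out. In all, 6 of the 8 RNA-directed effectors tested were lower and none was higher, against 18.7% and 11.1% of all genes tested.

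Among DNA-binding proteins of the PYHIN family, 2 of 3 were lower, Ifi202b being 1 of them, against 18.7% of all genes tested. Ifi202b, whose protein p202 binds DNA and blocks the AIM2 inflammasome in mice, read 5.13 and 5.51 in mutant and 7.64 and 7.37 in wild-type cultures. It passed the filter only through the wild-type arrays, since both mutant values lay below it, so its fitted difference of -2.18 (SE 0.15, adjusted p = 2.2e-05) is against a signal that may be background and is not an exact size. Ifi204, a DNA sensor of the same family, read 7.24 and 7.45 in mutant and 8.19 and 8.07 in wild-type cultures, a difference of -0.78 (SE 0.11, adjusted p = 0.0012). Ifi203 read 7.94 and 7.90 in mutant and 8.05 and 7.85 in wild-type cultures, with overlapping groups and a difference of -0.032 (adjusted p = 0.843). Ifi203 and Ifi202b are neighbours on chromosome 1, with Ifi204 close by, and these paralogs are so alike that a probe set may read more than one. The only Ifi202b probe set carries the suffix that Affymetrix gives to probes shared between transcripts.

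Of the RNA sensors, the gene for MDA5 fell and the others did not pass. Ifih1, which encodes MDA5, a sensor of long double-stranded RNA, read 8.71 and 8.50 in mutant and 9.43 and 9.12 in wild-type cultures, a difference of -0.67 (SE 0.13, adjusted p = 0.00621). Ddx58, which encodes RIG-I, differed by -0.27 (SE 0.095, adjusted p = 0.0626). Its groups did not overlap, as in 68.8% of all genes tested. The difference was -0.29 without wild-type replicate 1 and -0.26 without wild-type replicate 2. Its 3 probe sets disagreed, at -0.27, -0.56 and 0.06. Dhx58, which encodes their regulator LGP2, differed by -0.22 (adjusted p = 0.137).

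Regulators of the response were lower or did not pass. Usp18, which takes Isg15 off proteins and damps signalling at Ifnar2, read 7.43 and 7.26 in mutant and 8.32 and 8.05 in wild-type cultures, and was lower by 0.84 (SE 0.12, adjusted p = 0.00139). Trim30a, a ubiquitin ligase that restrains Toll-like receptor signalling in mice, read 8.83 and 8.67 in mutant and 9.28 and 9.29 in wild-type cultures. Its difference was -0.54 (adjusted p = 0.00487), with -0.77 at a second probe set, and it did not pass with mutant replicate 2 left out (adjusted p = 0.0732). Parp14, an ADP-ribosyltransferase, read 8.59 and 8.50 in mutant and 8.96 and 8.98 in wild-type cultures. Its difference of -0.43 (adjusted p = 0.0111) no longer passed when mutant replicate 1 (adjusted p = 0.0704) or 2 (adjusted p = 0.154) was left out, or over the mean of its probe sets (-0.28, adjusted p = 0.0542). Stat2 (-0.29, adjusted p = 0.0731), Ifi35 (-0.27, adjusted p = 0.0584) and Parp9 (-0.20, adjusted p = 0.129) did not pass. None of them overlapped between groups, which also held for 68.8% of all genes tested. At its other probe sets Ifi35 differed by -0.28 and -0.0085, the latter with overlapping groups. For Stat2 the difference was -0.18 without wild-type replicate 1 and -0.39 without wild-type replicate 2.

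Of the 4 membrane proteins, 1 was higher and none lower, against 11.1% and 18.7% of all genes tested. The called share of 25% was near the 29.8% of all genes, so the count says little about the group. Ifitm1, which blocks fusion of viral and cell membranes, read 8.73 and 8.55 in mutant and 7.82 and 7.77 in wild-type cultures, and was higher by 0.84 (SE 0.10, adjusted p = 0.000587) in every alternative that could be run. Its neighbours on chromosome 7, Ifitm2 and Ifitm3, had strong signals in every culture and did not pass. Ifitm2 read 12.69 and 12.83 in mutant and 12.00 and 12.88 in wild-type cultures, where the wild-type arrays lay further apart than the genotypes. Its difference was 0.32 with all arrays, -0.12 without wild-type replicate 1 and 0.75 with wild-type replicate 2 omitted instead. Ifitm3 read 13.56 and 13.63 in mutant and 13.38 and 13.87 in wild-type cultures (-0.025). Without wild-type replicate 1 it was -0.27, and without wild-type replicate 2 it was 0.22. Bst2, or tetherin, which holds budding virus at the cell surface, differed by -0.25 and did not pass (adjusted p = 0.146). Over the alternatives it ran from -0.37 to -0.13. The Ifitm1 window at chr7:140967826-140968125, plus strand, holds no match to either core. It lies inside the annotated span of the gene, which begins at 140967429, so bases before that point were not searched. Of the 14 lower genes with a window, 4 held neither core as well, and no Ifit2 window held the GAAA core.
Ifitm1: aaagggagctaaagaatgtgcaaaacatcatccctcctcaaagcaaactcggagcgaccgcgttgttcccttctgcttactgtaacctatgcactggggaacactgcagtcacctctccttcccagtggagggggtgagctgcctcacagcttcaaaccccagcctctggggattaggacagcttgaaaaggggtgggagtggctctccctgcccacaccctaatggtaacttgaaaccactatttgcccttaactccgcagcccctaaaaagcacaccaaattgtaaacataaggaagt

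**Figure D3:**
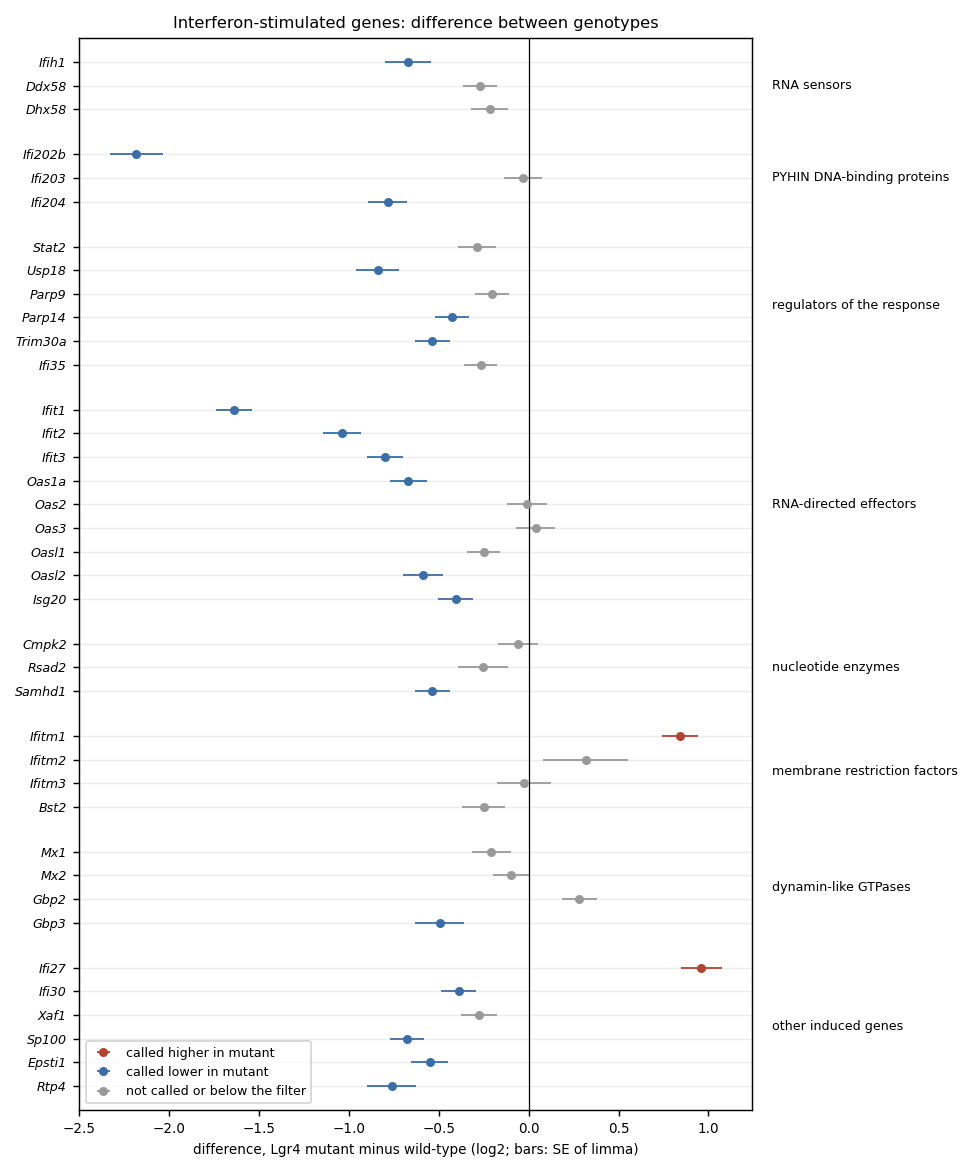
Difference in log2 signal, Lgr4 mutant minus wild-type (horizontal axis), of each interferon-stimulated gene by role, with the SE of limma as bars: 18 genes lower in the mutant, 2 higher, and grey for those that did not pass or lay below the filter. Most points lie left of 0, Ifi202b (a fitted -2.18, with mutant values below the filter) and Ifit1 (-1.64) farthest, and Ifitm1 (0.84) and Ifi27 (0.96) lie right of it.

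Of the enzymes of nucleotide supply 1 of 2 tested was lower, and of the large GTPases 1 of 3, against 18.7% of all genes tested. With so few genes, these counts say little about either group. Samhd1, a phosphohydrolase that depletes deoxynucleotides, read 9.69 and 9.62 in mutant and 10.26 and 10.13 in wild-type cultures, and was lower by 0.54 (SE 0.098, adjusted p = 0.00467), with negative differences at all 5 of its probe sets (-0.54 to -0.15) and -0.30 (adjusted p = 0.0295) over their mean. Rsad2, or viperin, overlapped between groups and did not pass (-0.25, adjusted p = 0.197), with -0.45 to -0.061 over the alternatives. Its neighbour Cmpk2, a mitochondrial nucleotide kinase, was below the filter, at 5.92 and 6.05 in mutant and 6.14 and 5.95 in wild-type cultures. Gbp3, a guanylate-binding protein, read 8.61 and 8.48 in mutant and 9.23 and 8.84 in wild-type cultures. Its difference of -0.50 (adjusted p = 0.0267) no longer passed without mutant replicate 2 (adjusted p = 0.122) and was -0.30 without wild-type replicate 1 (adjusted p = 0.0354). Gbp2, from the same cluster on chromosome 3, had the opposite sign, at 9.83 and 9.84 in mutant and 9.62 and 9.49 in wild-type cultures (0.28, adjusted p = 0.0597), and passed without wild-type replicate 1 (0.35, adjusted p = 0.0138). The dynamin-like Mx2 did not pass (-0.096, adjusted p = 0.514), and Mx1 was below the filter at 4.92 and 4.77 in mutant and 5.14 and 4.97 in wild-type cultures.

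The remaining members included both a marked rise and several falls. Ifi27, a small hydrophobic protein of mitochondria and the nuclear envelope, read 12.74 and 12.66 in mutant and 11.61 and 11.87 in wild-type cultures, and was 1.95-fold higher (0.96, SE 0.11, adjusted p = 0.000507), with 0.81 at its second probe set. Rtp4, a chaperone-like receptor transporter, read 9.19 and 8.83 in mutant and 9.87 and 9.67 in wild-type cultures, and was lower by 0.76 (SE 0.14, adjusted p = 0.00431). A second Rtp4 probe set below the filter brought this to -0.39 (adjusted p = 0.033) over the mean. Sp100, a component of nuclear bodies, read 8.24 and 8.19 in mutant and 8.94 and 8.85 in wild-type cultures (-0.68, adjusted p = 0.0013). Its second probe set differed by -0.27 and did not pass (adjusted p = 0.137) when probe sets shared between transcripts were left out. Epsti1, an interferon response gene first described in breast stroma, read 8.80 and 8.67 in mutant and 9.36 and 9.21 in wild-type cultures (-0.55, adjusted p = 0.00537). Epsti1 did not pass with mutant replicate 2 left out (adjusted p = 0.0607) or over the mean of its 4 probe sets (-0.20, adjusted p = 0.134). Ifi30, a lysosomal thiol reductase of antigen processing, read 11.52 and 11.55 in mutant and 11.85 and 12.00 in wild-type cultures (-0.39, adjusted p = 0.0195), and did not pass when mutant replicate 1 (adjusted p = 0.176) or 2 (adjusted p = 0.122) was left out. Xaf1, which antagonises the apoptosis inhibitor XIAP, differed by -0.28 at its brightest probe set and did not pass (adjusted p = 0.0692). It did in some alternatives, among them the mean of its probe sets (-0.92, adjusted p = 0.00197). A second, dimmer Xaf1 probe set read 7.05 and 6.84 in mutant and 8.79 and 8.22 in wild-type cultures, a difference of -1.56 (SE 0.18).

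Upstream genes of the pathway were compared as a separate list. Of 39 tested, 13 were lower and 1 higher, with a median of -0.22. That was 33.3% lower and 2.56% higher, against 18.7% and 11.1% of all genes. In either direction the called share was 35.9%, against 29.8% of all genes. Of the 8 ligand genes on the array, 7 lay below the filter. Ifnb1 read 5.89 and 6.13 in mutant and 5.83 and 6.00 in wild-type cultures (0.094). The receptor genes Ifnar1 (9.61 and 9.44 in mutant, 10.16 and 10.07 in wild-type cultures; -0.60, adjusted p = 0.00371) and Ifnar2 (-0.34, adjusted p = 0.0294) were lower. Ifnar2 did not pass when mutant replicate 1 (adjusted p = 0.197) or 2 (adjusted p = 0.251) was left out, or with arrays centred on the median of the tested genes (-0.28, adjusted p = 0.0585). Irf9, the DNA-binding subunit of the complex with Stat2, read 8.16 and 8.33 in mutant and 9.06 and 8.71 in wild-type cultures, and was lower by 0.64 (SE 0.13, adjusted p = 0.00851). Jak1 was lower by 0.32, close to the threshold (adjusted p = 0.0484). It did not pass without the filter (0.0644), in 4 other alternatives that kept all arrays (0.0528 to 0.0941), or without wild-type replicate 1 (0.0738), mutant replicate 1 (0.278) or mutant replicate 2 (0.247). By contrast, Tyk2 (-0.069), Irf1 (0.084), Irf3 (-0.027) and Irf7 (-0.22), which amplifies the response, did not pass with all arrays. Irf7 was -0.37 without wild-type replicate 1 and -0.064 without wild-type replicate 2. Socs3, a feedback inhibitor of cytokine signalling through gp130, was the only called gene of the list at or beyond a 2-fold difference, at 9.03 and 9.03 in mutant and 10.21 and 10.14 in wild-type cultures (-1.15, SE 0.093, adjusted p = 6.34e-05), with -0.76 at its probe set that is not shared between transcripts. Mavs, the adaptor that MDA5 and RIG-I share, was the gene that was higher (0.46, adjusted p = 0.0236). It was named after its value was seen, and it did not pass when mutant replicate 1 (adjusted p = 0.0959) or 2 (adjusted p = 0.0962) was left out, or over the mean of its probe sets (0.21, adjusted p = 0.146). The pathway count was 22 of 39 without wild-type replicate 1, when 35.6% of all genes were called. It was 6 without mutant replicate 1 (14.1% of all genes) and 7 without mutant replicate 2 (16.0% of all genes).

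Further interferon-induced genes outside the 40 and antigen presentation genes were compared as well. Of 38 further genes tested, 17 were lower (44.7%), 2 higher (5.26%) and 19 did not pass (median -0.24). Among all genes tested, 18.7% were lower and 11.1% higher. Fewer of the list, and fewer of all genes, were called without mutant replicate 2. Slfn8 (-0.92, adjusted p = 0.000405), of the Schlafen family, and Irgm1 (-0.67, adjusted p = 0.00719), an immunity-related GTPase, were among the lower ones, both named after their values were seen. Lgals3bp, a secreted glycoprotein, was higher, at 12.03 and 12.04 in mutant and 10.66 and 11.37 in wild-type cultures (1.02, SE 0.20, adjusted p = 0.00617, and 0.66 without wild-type replicate 1). The other higher gene, named after its value was seen, was Lap3, a leucine aminopeptidase (0.30, adjusted p = 0.038), which did not pass when mutant replicate 1 (adjusted p = 0.300) or 2 (adjusted p = 0.258) was left out. Of 16 antigen presentation genes tested, 1 was higher and 1 lower (12.5% called, against 29.8% of all genes, median 0.0024). These were Psme1, a proteasome activator subunit (0.53), and Nlrc5, the transactivator of class I genes (-0.53), both named after their values were seen. Psme1 did not pass without mutant replicate 1 (adjusted p = 0.0594), nor Nlrc5 without mutant replicate 2 (adjusted p = 0.0576). B2m, the light chain of class I molecules, read 13.88 and 13.88 in mutant and 13.83 and 13.90 in wild-type cultures, with an SE of 0.092 on a difference of 0.013. Tap1, the peptide transporter, differed by -0.13 (adjusted p = 0.373). The antigen presentation count rose with either wild-type array left out and fell with either mutant array left out. So did the count over all genes.

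**Figure D4:**
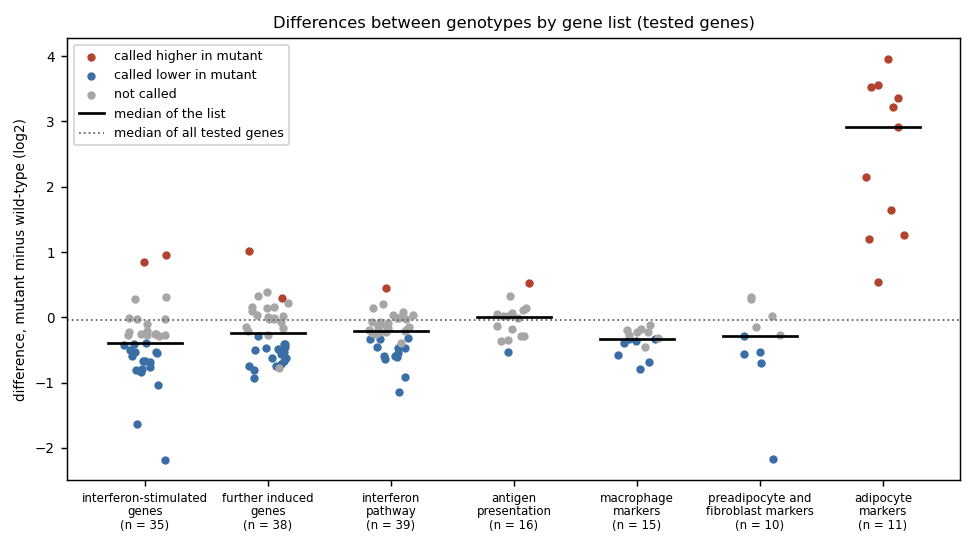
Difference in log2 signal, Lgr4 mutant minus wild-type (vertical axis), of every tested gene in 7 lists, with list medians as bars and the median of all tested genes (-0.035) as a dotted line. Medians were -0.39 for the interferon-stimulated genes, -0.24 for further induced genes, -0.22 for the pathway, 0.0024 for antigen presentation, -0.33 for macrophage markers and 2.92 for adipocyte markers.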

How the data were processed

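Per the labels, RNA (500 ng) from the cultures was labelled with an Affymetrix 3' kit and hybridised to 1-colour arrays. The authors deposited log2 signals per probe set, made with Partek 6.6 and RMA per the submitters' processing notes, which equalises arrays and compresses differences near background. Of 45101 probe sets, 64 controls were left out. Platform annotation named 1 gene for 34945 probe sets, several for 932 (not used) and none for 9160. The brightest probe set per gene was tested if its mean exceeded the 40th percentile of probe sets (6.13), which left 13173 genes. Genes below it have values from the same fit on all 18193 genes.

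The mutant was set against wild-type by lmFit and eBayes of limma 3.58.1 (R 4.3.3), 2-sided, with Benjamini-Hochberg adjustment over all genes tested, a threshold of 0.05, and 2 residual and 6.21 prior degrees of freedom. As nothing ties the arrays to separate animals, p-values reflect only the spread between these arrays, which may be technical. The number of arrays limits the precision. In a simulation with 13173 genes, the fit found 26 of 67 given a shift of 0.5 log2 units. It found 64 of 67 with a shift of 1 and 66 of 66 with a shift of 2. Those shifted genes were a far smaller share than the 29.8% called in the real data, and the adjusted p depends on that share. The simulation therefore does not show how many real differences of these sizes would pass here. Of the same-numbered arrays, deviations from the genotype means correlated at 0.159 over genes, and the labels tie the numbers to no animal or day, so no block was used. The members and lists were chosen with earlier results of these data known. All 40 members are accounted for, and of the other lists called genes with a difference of at least 1 and a fixed set of core genes are named. The macrophage markers given by name were chosen after their values were seen. Alternatives changed the filter, probe sets, scaling, fit and arrays. Where 1 array was left out, only the other genotype's pair gave a spread. The median absolute difference within a pair was 0.14 for wild-type and 0.073 for mutant arrays. Over all genes, more passed without a wild-type array and fewer without a mutant array than with all 4. A pass in such a fit is therefore little support for any 1 gene.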

Additional observations from a re-analysis of the deposited data

How the results depend on the processing

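Of the 20 called members, 12 kept their call and direction in every alternative that could be run, and none changed direction. The 12 include Ifi202b, whose mutant values lay below the filter. It could not be run with a stricter filter or without shared probe sets. The 13 lost calls among 293 values arose without mutant replicate 2 (7), without mutant replicate 1 (3), over the mean of a gene's probe sets (2) and without shared probe sets (1). Of the 15 members that did not pass, 10 passed in at least 1 alternative, 3 of them only when an array was left out. Counts of lower members were 12 to 23 in the alternatives that kept all 4 arrays, the 12 without shared (_x_at, _s_at, _a_at) probe sets, where 29 members were tested, and the 23 with arrays centred on the median of all probe sets. Leaving out 1 array gave 11 to 24 lower members and 2 to 3 higher ones, 1851 to 6349 genes in all, 6 to 22 pathway genes, 10 to 24 further induced genes and 1 to 6 antigen presentation genes. Higher members numbered 1 without shared probe sets and 4 with the replicate block, and pathway calls were 9 of 29 tested without shared probe sets, against 14 of 39. Antigen presentation calls were 5 with arrays centred on the median and 7 with the replicate block. The block, on numbers the labels do not tie to a shared animal or day, gave 4879 calls in all, and all 20 called members passed under it. Centring on the median of the tested genes, chosen after seeing the data, put higher genes at 48.5% of all calls, against 37.1%. Small differences that did not pass changed sign as follows. After a second quantile normalization Ifi203 was 0.0098 and Oas2 0.018. With the tested-gene median they were 0.022 and 0.043, and Ifitm3 was 0.029. Leaving out 1 array put Ifi203 at -0.13 to 0.069, Oas2 at -0.11 to 0.093, Ifitm2 at -0.12 to 0.75 and Ifitm3 at -0.27 to 0.22, Tyk2 at -0.24 to 0.10, Irf3 at -0.17 to 0.12 and B2m at -0.022 to 0.048. Irf3 was 0.026 over the mean of its probe sets, 0.12 without shared probe sets, 0.056 after a second quantile normalization and 0.027 with the tested-gene median. With arrays centred on the median of all probe sets B2m was -0.020. The cause was not tested. Signals near the filter, as for Ifi202b in the mutant, limit how large a fall can be read.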
